A study of Mus musculus with 10 samples.

Results

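Serpins are a large family of protease inhibitors, and the genes described here are the members that the expression table lists under a Serpin symbol with a clade letter from a to i and a number, or as Serping1. The rule found 63 of the 21959 genes of the table. Clade A held 24 members and clade B 28, clade E held 3, clades F and I held 2 each, and clades C, D, G and H held 1 each. By the table's positions, 23 of the 24 clade A members lay side by side on chromosome 12, while clade B was divided between a cluster of 16 genes on chromosome 13 and a cluster of 12 genes on chromosome 1.

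The tumors were 4T1 tumors, grown from a mouse mammary carcinoma line used to model triple-negative disease of the breast. The cells had been injected under the abdominal skin of female BALB/c mice of 5 to 6 weeks of age. The exercise group (E) had free access to a running wheel, and the non-exercise group (NE) was kept under ordinary housing, so that strain, sex and the injected line, which is a single line, were shared by both groups. Tumors were taken after 21 days, and 1 library per mouse was sequenced, with 5 tumors in each group. The comparison asks which serpin genes differed in RNA level between tumors of running and of sedentary mice.

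A serpin that inhibits a protease offers it an exposed loop as bait; once the loop is cut, the serpin folds into a new shape and holds the protease in an inactive complex. Clade A members are mostly secreted, many of them from the liver, clade B members act mostly inside cells, and further clades guard the clotting, plasminogen and complement cascades. Some members inhibit no protease, among them the collagen chaperone encoded by Serpinh1 and the secreted factor encoded by Serpinf1.

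Depth was 15045613 to 20646763 counted reads in the E tumors and 18706032 to 23092251 in the NE tumors. Of the epithelial genes that define the labelled mammary tissue, Krt19 was at 4.59 to 12.6 FPKM and Cdh1 at 1.42 to 4.44 FPKM, whereas Krt8 did not exceed 0.618 FPKM, Krt18 did not exceed 1.46 FPKM and Epcam did not exceed 1.41 FPKM in any tumor. FPKM is a read count scaled to gene length and library total, so that levels of different genes can be compared. Several tumors stood apart in markers of other tissue, given as summed CPM (counts scaled to the library total with TMM factors, not to gene length). The 12 skeletal muscle markers summed to 28974.5 CPM in NE4 and to 6.41 CPM in NE1, against 126 to 3954 CPM in the other tumors. The 9 keratinocyte markers summed to 135 CPM in NE5 and to 2.29 to 5.80 CPM elsewhere. The fibroblast markers were highest in E5 at 15382 CPM and lowest in NE1 at 966 CPM, and the neutrophil markers were highest in E5 at 501.7 CPM. In such bulk tissue, fewer cells of a type and less RNA per cell cannot be told apart.

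The serpin RNA of the tumors was dominated by a single gene. Serpinh1 reached a mean of 541 FPKM and was the gene with rank 49 among all genes of the table, and it made up 53.6% (NE4) to 77.5% (NE1) of the summed serpin FPKM of a tumor. The next members were Serpinf1 with a mean of 53.1 ± 14.8 FPKM (SD over 10 tumors), Serping1 with 48.8 ± 29.9 FPKM, Serpinb6a with 39.9 ± 5.24 FPKM, Serpinb9 with 27.9 ± 4.60 FPKM, Serpina3n with 27.7 ± 23.2 FPKM and Serpinb6b with 20.4 ± 3.40 FPKM. Serpinf1 and Serping1, and likewise Serpinb9 and Serpina3n, were neighbors in this order whose means differed by less than the SD of either gene. In all, 15 members had a mean of at least 1 FPKM, 14 lay between 0.1 and 1 FPKM, 24 had reads but a lower mean, and 10 had no read in any tumor. All serpin genes together took 0.173% to 0.246% of the counted reads of a tumor.

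**Figure D1:**
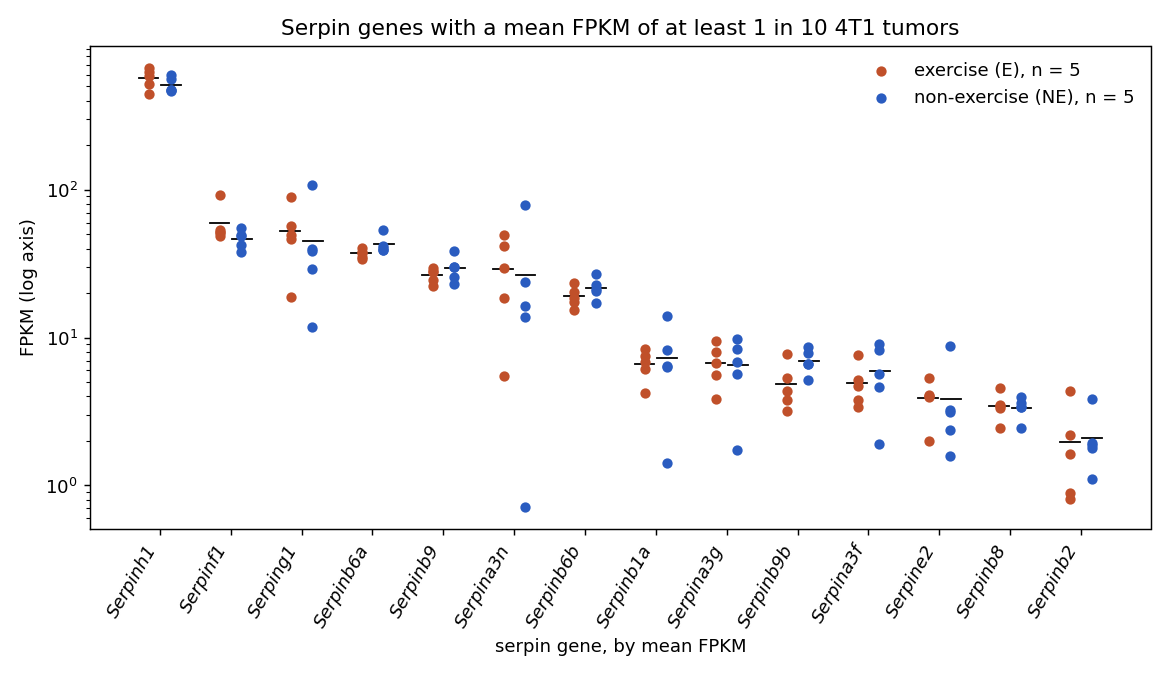
Levels of 14 of the 15 serpin genes with a mean of at least 1 FPKM, in order of their mean, with FPKM on a log axis; each point is 1 tumor, E tumors are in orange, NE tumors in blue, and the short lines are group means (n = 5 each). Serpinh1 lies far above all others, and the points of Serpina3n run from 0.713 FPKM in NE1 to 78.3 FPKM in NE4.

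The members could be placed by clade. Clade H, which is Serpinh1 alone, gave 541 ± 76.6 FPKM (SD, n = 10). The 28 clade B genes summed to 109 ± 14.5 FPKM, the 2 clade F genes to 53.1 ± 14.8 FPKM and clade G, which is Serping1 alone, to 48.8 ± 29.9 FPKM. Clade A, whose members are mostly but not all secreted, summed to 41.4 FPKM with an SD of 27.5 and a range from 4.53 to 100.4 FPKM. The clotting inhibitors of clades C and D and clade I each stayed under 1 FPKM in every tumor.

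Between the groups, no serpin gene passed the test. The counts of 13517 genes were compared with edgeR's quasi-likelihood test, and a call required an FDR no higher than 0.05 together with a change of 2-fold or more; 22 members had enough reads to be tested and 41 did not. None of the 22 was called, and neither was any other gene (0% of all genes tested), with a smallest FDR of 0.897. An unadjusted p no higher than 0.05 was found for 3 members, or 13.6% of those tested, against 4.86% of all genes tested. All 3 were lower in E, where 2.29% of all genes stood, and 0 members were higher in E, against 2.57% of all genes. DESeq2 and limma-voom with sample weights also called 0 members. At an unadjusted p of at most 0.05, DESeq2 had 3 members (13.6%, against 5.92% of all genes) and limma-voom 2 members (9.09%, against 13.3% of all genes), so that the family's share was above that of all genes by edgeR and DESeq2 and below it by limma-voom. The E and NE values overlapped in all 22 members tested, while 0.725% of all genes tested had groups that did not overlap. Among the members too low to be tested, Serpinb9d had 0, 1, 2, 0 and 0 reads in E1 to E5. It had 4, 8, 8, 11 and 10 reads in NE1 to NE5, so that its groups did not overlap. Serpinb9d was named after its values were seen. Of the stretches of 50 bases in its transcripts, 30.8% also occur in transcripts of other genes.

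The log2 fold changes, E over NE, of the tested members ran from -1.03 (Serpinb9g) to 0.75 (Serpind1), with a median of -0.04 against -0.01 over all genes tested. A value below 0 was found in 12 of the 22 members, or 54.5%, and in 54% of all genes tested. By direction the family stood close to this background. The members with the smallest p all lay in the chromosome 13 cluster. All 7 tested genes of that cluster had a log2 fold change below 0, with a median of -0.22, against 2 of 5 on chromosome 12, 2 of 3 in the cluster on chromosome 1 and 1 of the 7 members elsewhere. The sign did not hold in all settings. Serpinb1a was at 0.0172 with limma-voom, at 0.0534 with a replicate block and at 0.23 without NE4. E5 had the lowest CPM in 4 genes of the cluster, Serpinb6a, Serpinb6b, Serpinb9 and Serpinb9b, and in 12.3% of all genes tested. Genes of 1 cluster are close relatives and were measured in the same tumors, so that these counts are a description and were not tested.

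**Figure D2:**
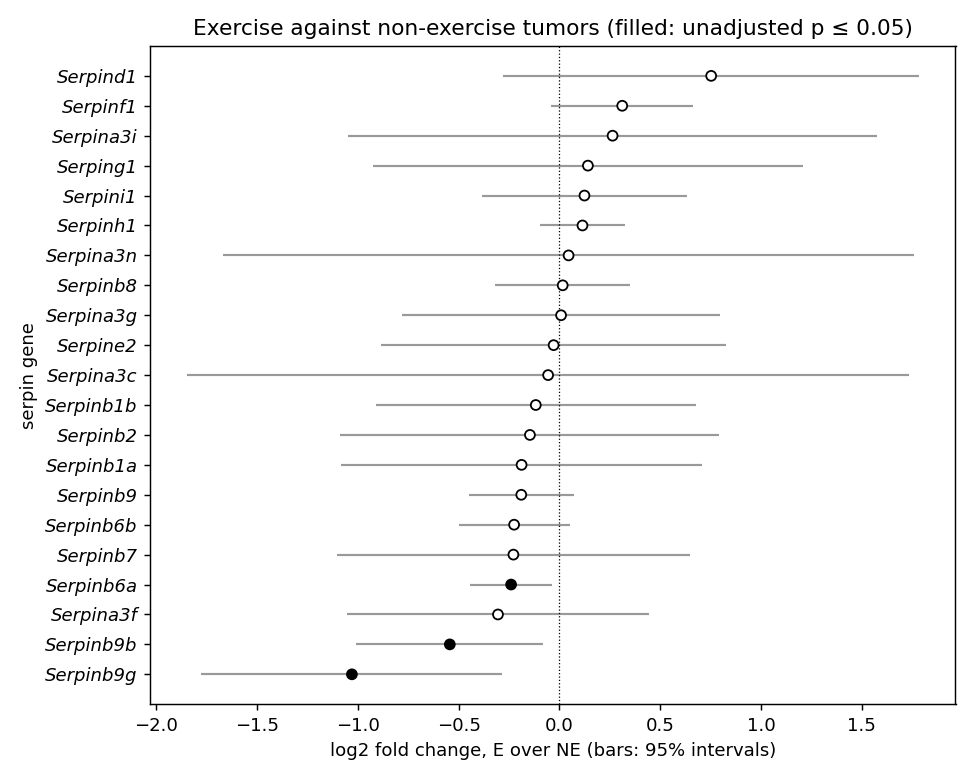
Log2 fold change, E over NE, of 21 of the 22 serpin genes tested, sorted by size; points are edgeR estimates from 5 tumors per group, bars are 95% intervals, and filled points have an unadjusted p of at most 0.05. The filled points are Serpinb9g, Serpinb9b and Serpinb6a, all below 0, and none has an FDR under 0.897.

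Among the members that inhibit no protease, Serpinh1 encodes HSP47, a chaperone of the endoplasmic reticulum that binds newly made procollagen. Its level was 667, 626, 446, 515 and 589.7 FPKM in E1 to E5 and 594, 562, 467, 476 and 472 FPKM in NE1 to NE5. E1 was highest and E3 lowest, so that the E tumors spanned the whole NE range. The log2 fold change was 0.11 (SE 0.107, 95% interval -0.10 to 0.32, edgeR FDR 0.897), and the highest tumor stood 1.46-fold above the lowest, the smallest such ratio among the tested members; the median ratio was 1.53 over all genes with a read in every tumor.

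The collagens that this chaperone serves varied much more. The 5 fibrillar collagen genes summed to 2639.8 to 16212 CPM in the E tumors and to 1383 to 5028 CPM in the NE tumors, with the highest sum in E5 and the lowest in NE1. None was called, and the median log2 fold change was 0.88; Col5a1 was higher in E at an unadjusted p of 0.0183 (log2 fold change 0.53, SE 0.189), and Col3a1, Col1a1 and Col1a2, the most abundant of the list with means of 235, 143 and 75.8 FPKM, had log2 fold changes of 0.88, 1.31 and 1.32 with FDR of 0.897 each. Across the 10 tumors, Pearson's r between Serpinh1 and the collagen score, the mean log2(CPM + 1) of the list, was 0.07 (permutation p 0.862, adjusted over 12 relations 0.862), Spearman's rho was 0.07 (adjusted 0.865), and r was 0.16 without E5 and NE1.

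Serpinf1 encodes PEDF, a secreted factor known for restraining blood vessel growth. Its level was 52.0, 50.7, 48.5, 53.4 and 92.7 FPKM in E1 to E5 and 48.9, 55.2, 42.3, 49.3 and 38.1 FPKM in NE1 to NE5. Apart from E5, which stood well above all other tumors, the groups covered much the same range. The log2 fold change was 0.31 (SE 0.180, edgeR p 0.114, FDR 0.897), and it was 0.10 without E5. The fibroblast markers were also highest in E5, and r between Serpinf1 and their score was 0.55 over the 10 tumors (permutation p 0.121, adjusted 0.207; rho 0.45, adjusted 0.285) and -0.07 without E5 and NE1, so that the value rests on those tumors.

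Of the inhibitors that guard blood and tissue cascades, Serping1, the C1 inhibitor, was the most abundant. It blocks the proteases C1r and C1s that start the classical complement pathway, and also acts on the contact system. Serping1 was at 57.2, 49.2, 18.7, 46.5 and 89.5 FPKM in E1 to E5 and at 11.8, 28.9, 39.8, 107 and 38.7 FPKM in NE1 to NE5. The highest and the lowest tumor were both NE tumors, 9.80-fold apart in CPM, and the group difference was small beside this spread (log2 fold change 0.14, SE 0.544, 95% interval -0.93 to 1.21, edgeR FDR 0.976). Without NE4 the log2 fold change was 0.79, without NE1 it was -0.10, and without E5 it was -0.14.

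The targets of the C1 inhibitor ranged less widely than the inhibitor itself, C1ra from 129 to 164 CPM and C1s1 from 130.4 to 187 CPM. C1ra was at 54.1 ± 1.69 FPKM in E and 47.8 ± 3.77 FPKM in NE (SD, n = 5 each), with a log2 fold change of 0.15 (SE 0.0543, edgeR p 0.0201, FDR 0.897), and C1s1 at 55.5 ± 4.09 against 47.3 ± 4.38 FPKM (0.20, SE 0.0754, p 0.0248, FDR 0.897). The complement list held 9 genes, C1ra, C1rb, C1s1, C1s2, Masp1, Masp2, C1qa, C1qb and C1qc. C1ra and C1s1 were its 2 genes at an unadjusted p of at most 0.05, and none was called. All 6 tested genes had log2 fold changes above 0, with a median of 0.14. Over all genes tested, 2.57% were higher in E at that p, and 54% had a value below 0. The same shares stand beside the counts of the lists below. Genes of a list were measured in the same tumors, so that such counts are a description and were not tested. C1qa, C1qb and C1qc, the subunits of the recognition protein and markers of macrophages as well, had means of 273, 290.4 and 115 FPKM and FDR of 0.951 to 0.958.

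Across tumors, Serping1 and the score of the complement list went together. Pearson's r was 0.84 (permutation p 0.00352, adjusted 0.0211) and Spearman's rho 0.87 (adjusted 0.0148) over the 10 tumors, and r was 0.60 without E5 and NE1, the tumors farthest from the median score. Leaving out single tumors gave r from 0.69 to 0.91, and the adjusted p was above 0.05 without NE1 (0.113), E3 (0.0531) or E5 (0.0596). The list shares 3 genes with the macrophage markers, which summed to 595 CPM in NE1 and to 1168 to 2257 CPM in the other tumors; their part in the relation was not tested. With the interferon-stimulated genes, a class to which Serping1 is known to belong, r was -0.22 (permutation p 0.549, adjusted 0.659), rho was -0.19 (adjusted 0.728), and r was 0.18 without E4 and NE4.

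Serpine2, or protease nexin 1, inhibits thrombin, urokinase and plasmin at the cell surface. Its level was 3.99, 4.12, 2.01, 4.00 and 5.36 FPKM in E1 to E5 and 1.57, 3.14, 3.23, 8.78 and 2.37 FPKM in NE1 to NE5. As for Serping1, NE4 was highest and NE1 lowest, 5.99-fold apart in CPM, and the group difference was small beside this spread (log2 fold change -0.03, SE 0.438, edgeR FDR 0.996). With library size alone in place of TMM the value was 0.03, without NE4 it was 0.58 and without NE1 it was -0.22. Serpine2 followed the fibroblast score with r of 0.76 (permutation p 0.0167, adjusted 0.0612) and rho of 0.84 (adjusted 0.0148), and r was 0.67 without E5 and NE1. The adjusted p of r was 0.0468 with log2(CPM + 0.1) and 0.0322 without NE4.

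The plasminogen activation system was measured in the same tumors. Plau, the urokinase, and Plat, the tissue activator, were at 104 ± 15.1 and 11.4 ± 2.24 FPKM in E and at 81.5 ± 11.9 and 8.58 ± 1.37 FPKM in NE (SD, n = 5 each). They had the smallest p values of the plasminogen list (log2 fold change of Plat 0.38 with SE 0.134 and edgeR p 0.0175, and of Plau 0.32 with SE 0.122 and p 0.0234), and neither passed the adjustment (FDR 0.897). Of the 10 genes of the list 9 were tested, with a median log2 fold change of 0.17. At an unadjusted p of at most 0.05, 3 were higher in E, the third being Thbs1, and none was lower. Over all genes tested, 2.57% were higher and 2.29% lower in E at that p. Plg, which encodes plasminogen itself and is made in the liver, had no read in any tumor. The most abundant genes of the list, the plasminogen receptor subunits Anxa2 and S100a10, had means of 334 and 316 FPKM and log2 fold changes of -0.10 and -0.03 (edgeR FDR 0.897 and 0.948).

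The clotting inhibitors were near the limit of detection. Serpind1, heparin cofactor II, had 23, 27, 45, 4 and 22 reads in E1 to E5 and 13, 11, 35, 11 and 12 reads in NE1 to NE5, which gave 0.0984 to 0.996 FPKM. It had the largest log2 fold change of the family, 0.75, with an SE of 0.526 (edgeR p 0.182, FDR 0.897, exact permutation p 0.167). All E tumors but E4 were above all NE tumors but NE3, and the value was 1.19 without NE3 and 0.46 without E3. Serpinc1, antithrombin, had 3 to 13 reads per tumor, and Serpinf2, the inhibitor of plasmin, 0 to 5 reads. Serpini1, or neuroserpin, an inhibitor of tissue plasminogen activator known from neurons, was at 0.279 to 0.762 FPKM with a log2 fold change of 0.12 (SE 0.259, edgeR FDR 0.950).

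The proteases and receptors of the clotting cascade were present in part. Of 18 genes, 11 were tested with a median log2 fold change of 0.17, and none was called. Tfpi2, a Kunitz-type inhibitor, was the gene at an unadjusted p of at most 0.05 (5.59 ± 3.99 FPKM in E against 2.08 ± 1.12 FPKM in NE, log2 fold change 1.37, SE 0.617, edgeR p 0.0496, FDR 0.897). The thrombin receptor F2r, at a mean of 76.6 FPKM the most abundant of the list, had a log2 fold change of 0.09 (FDR 0.947), Procr, the protein C receptor, -0.22 (p 0.0504, FDR 0.897) and F13a1 0.17 (FDR 0.951). F2, which encodes prothrombin, had at most 3 reads in a tumor.

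In clade A, 5 of 24 members were tested and all 5 belonged to the Serpina3 group, the mouse relatives of human alpha-1-antichymotrypsin. In the order of the chromosome 12 cluster they were Serpina3c, Serpina3f, Serpina3g, Serpina3i and Serpina3n. Since these neighbors were all lowest in NE1, and 4 of them highest in NE4, their promoters are shown as RefSeq gives them on GRCm38.p6, as windows of 300 bases that lie mostly before the start. Capitals mark the 9 bases that align with a STAT-type motif (letters TTCNNNGAA) found in the Serpina3g promoter. This motif reads the same on both strands and stood in 8.3% of the 32851 promoter windows and in 11 of the 63 windows (17.5%) found for 54 of the 63 members, 19 of the 22 tested members among them. Windows of different starts of a gene can overlap, so that the same motif can be counted more than once, as in Serpina3f. A match describes the letters only.
Serpina3n, chr12:104406458-104406757, forward strand: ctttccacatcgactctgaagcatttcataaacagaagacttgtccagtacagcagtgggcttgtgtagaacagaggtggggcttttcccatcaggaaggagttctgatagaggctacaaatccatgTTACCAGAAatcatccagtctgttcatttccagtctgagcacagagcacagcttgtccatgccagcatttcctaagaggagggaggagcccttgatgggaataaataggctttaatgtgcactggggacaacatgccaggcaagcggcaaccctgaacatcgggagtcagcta
Serpina3c, chr12:104153823-104154122, reverse strand: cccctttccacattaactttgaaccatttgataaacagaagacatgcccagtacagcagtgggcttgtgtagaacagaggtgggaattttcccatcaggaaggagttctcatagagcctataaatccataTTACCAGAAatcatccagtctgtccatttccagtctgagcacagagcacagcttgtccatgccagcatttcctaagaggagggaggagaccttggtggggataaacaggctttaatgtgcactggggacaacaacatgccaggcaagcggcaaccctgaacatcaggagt
Serpina3g, chr12:104235897-104236196, forward strand: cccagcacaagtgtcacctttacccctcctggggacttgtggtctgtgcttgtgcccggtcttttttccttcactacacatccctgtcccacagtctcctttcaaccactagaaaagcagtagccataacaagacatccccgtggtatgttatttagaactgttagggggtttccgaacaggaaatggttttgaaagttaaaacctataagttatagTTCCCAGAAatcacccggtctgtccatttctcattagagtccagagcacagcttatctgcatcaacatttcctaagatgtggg
Serpina3f, chr12:104214294-104214593, forward strand: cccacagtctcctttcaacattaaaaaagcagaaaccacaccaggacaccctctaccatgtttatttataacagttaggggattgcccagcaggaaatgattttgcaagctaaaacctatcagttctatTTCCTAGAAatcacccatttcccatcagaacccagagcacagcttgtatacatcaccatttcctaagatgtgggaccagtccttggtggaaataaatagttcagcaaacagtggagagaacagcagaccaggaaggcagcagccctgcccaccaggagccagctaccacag
Serpina3i, chr12:104262872-104263171, forward strand: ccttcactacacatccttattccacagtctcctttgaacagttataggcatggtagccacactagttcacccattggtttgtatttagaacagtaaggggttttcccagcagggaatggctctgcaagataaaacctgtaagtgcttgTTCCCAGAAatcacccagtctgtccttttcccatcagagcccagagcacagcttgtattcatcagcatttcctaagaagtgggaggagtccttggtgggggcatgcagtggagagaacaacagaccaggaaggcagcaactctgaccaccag

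Counted from 1 at the 5′ end of the motif in Serpina3g, Serpina3i had the same 9 bases (TTCCCAGAA), Serpina3f had C5T (TTCCTAGAA), and Serpina3n and Serpina3c both had C3A (TTACCAGAA) and so did not hold the motif. The motif began 33 bases before the start in Serpina3g, 102 in Serpina3i and 121 in Serpina3f. In another Serpina3f window, which is not shown, it began 210 bases before the start. The aligned bases began 123 and 120 bases before the start in Serpina3n and Serpina3c. The promoters of Serpina3n and Serpina3c were 93.5% identical over 294 aligned bases, those of Serpina3g, Serpina3f and Serpina3i 81.7% to 83.7%, and the pairs between these sets 70.6% to 76.7%.

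Serpina3n, an acute phase inhibitor of leukocyte proteases, had the highest ratio of highest to lowest tumor among the tested members with a read in every tumor. Its level was 29.7, 41.6, 5.48, 18.6 and 49.0 FPKM in E1 to E5 and 0.713, 13.7, 23.9, 78.3 and 16.4 FPKM in NE1 to NE5, from 34 reads in NE1 to 3709 reads in NE4. The highest tumor was 118-fold above the lowest in CPM, and both were NE tumors. The group difference was small beside this spread (log2 fold change 0.05, SE 0.876, 95% interval -1.67 to 1.76, edgeR FDR 0.996), and the value was 1.06 without NE4 and -0.26 without NE1.

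Serpina3g, an intracellular inhibitor of cysteine cathepsins known from lymphocytes, was at 8.01, 5.61, 3.85, 6.68 and 9.54 FPKM in E1 to E5 and at 1.73, 5.66, 8.38, 9.77 and 6.84 FPKM in NE1 to NE5. Serpina3f was at 7.66, 5.13, 3.37, 3.81 and 4.73 FPKM in the E tumors and at 1.91, 4.65, 8.24, 9.06 and 5.72 FPKM in the NE tumors. NE4 was again highest and NE1 lowest in both, 6.07-fold and 5.09-fold apart in CPM. Their log2 fold changes were 0.01 (SE 0.402, FDR 0.999) and -0.31 (SE 0.383, FDR 0.926) by edgeR, and without NE4 they were 0.23 and -0.07, without NE1 -0.23 and -0.52.

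The remaining tested members of the group were rare. Serpina3c had 6, 15, 7, 25 and 26 reads in E1 to E5 and 0, 6, 8, 64 and 20 reads in NE1 to NE5, so that NE4 was at least 23.0-fold above NE1, taking 3 reads in NE1 as the floor. Serpina3i had 12, 18, 6, 25 and 26 reads in the E tumors and 1, 10, 16, 30 and 28 reads in the NE tumors. Their log2 fold changes were -0.06 (SE 0.915) and 0.26 (SE 0.670), with edgeR FDR of 0.996 and 0.959. Part of the sequence of these genes occurs in relatives: 15.9% of the stretches of 50 bases in the transcripts of Serpina3i, 15.5% in Serpina3g, 10.6% in Serpina3f, 6.9% in Serpina3n and 4.25% in Serpina3c also occur in transcripts of another gene, so that single reads may have been counted for a neighbor.

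NE4 and NE1 marked the ends of the range for much of the family. NE4 had the highest CPM in 9 of the 22 tested members, Serpina3c, Serpina3f, Serpina3g, Serpina3n, Serpinb1a, Serpinb6a, Serpinb9b, Serpine2 and Serping1, and in 19.7% of all genes tested; it had the lowest CPM in 0 members and in 22.1% of all genes. NE1 had the lowest CPM in 9 members, Serpina3c, Serpina3f, Serpina3g, Serpina3i, Serpina3n, Serpinb1a, Serpinb9g, Serpine2 and Serping1, and in 20.8% of all genes tested. Over the 21 tested members with a read in every tumor, the median ratio of the highest to the lowest tumor was 4.91, against 1.53 over all such genes. Of the 21, 11 lay above 4.80, the 90th percentile of all genes. The genes were not matched by level, and few reads widen such a ratio. Serpina3i, Serpind1, Serpinb9g and Serpinb7, with at least 1, 4, 9 and 13 reads in a tumor, were among the 11. So were Serping1 and Serpine2, with at least 632 and 301 reads. NE4 and NE1 were also the highest and the lowest in the skeletal muscle sum, and NE1 was the lowest in the macrophage, fibroblast, neutrophil and mast cell sums; the part of these tissues in the serpin levels was not tested.

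**Figure D3:**
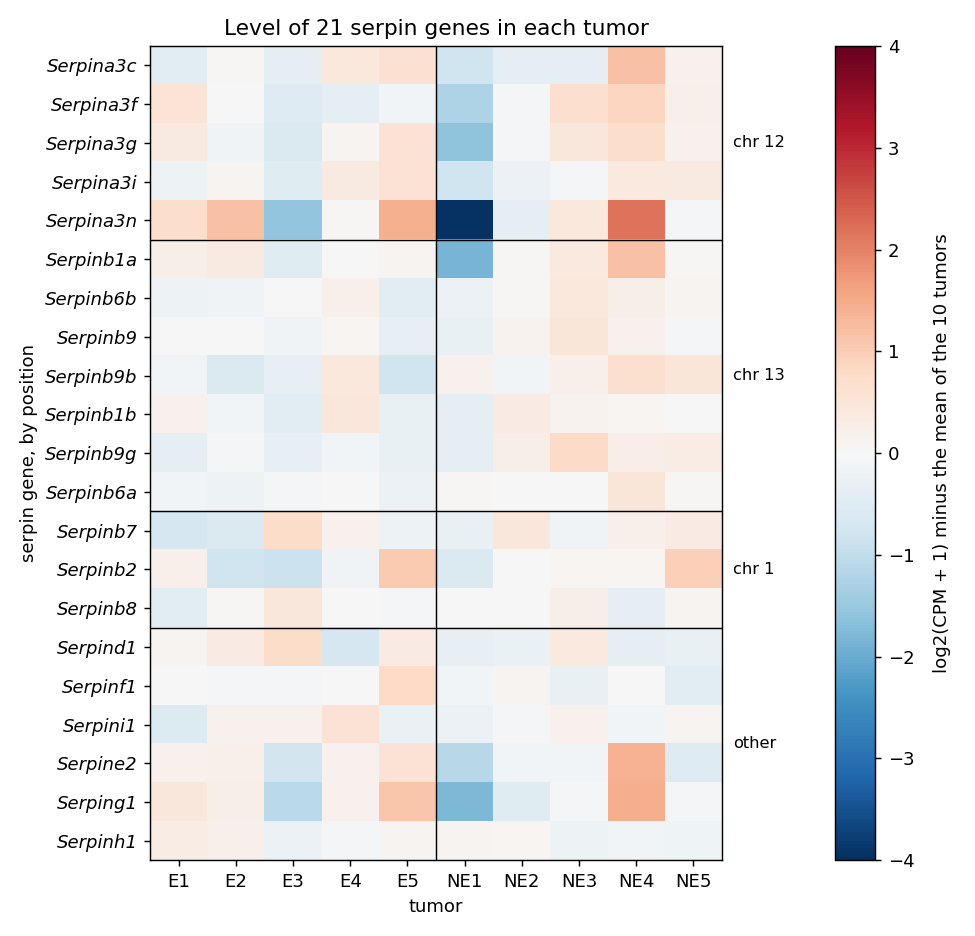
Level of 21 of the 22 tested serpin genes in each tumor, as log2(CPM + 1) minus the gene's mean over the 10 tumors (red above, blue below the mean), with genes by chromosome cluster and position and the vertical line between E and NE tumors. The NE4 column is red and the NE1 column blue for the Serpina3 genes, Serpinb1a, Serpine2 and Serping1, while Serpinh1, Serpinb6b and Serpinb9 are pale throughout.

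The acute phase genes Lcn2, Saa3, Hp and their relatives went with Serpina3n across tumors. Pearson's r between Serpina3n and the score of the 7 genes was 0.85 (permutation p 0.00228, adjusted 0.0211) and rho 0.81 (adjusted 0.0208) over the 10 tumors, and r was 0.84 without E5 and NE1. Leaving out single tumors gave r from 0.74 to 0.94, and the adjusted p was above 0.05 without NE1 (0.110) or E3 (0.0531). The list summed to 336 CPM in E5, 107 CPM in NE4 and 1.87 CPM in NE1, and to 21.7 to 53.4 CPM in the other tumors. Lcn2, Saa3 and Hp, the 3 tested genes, had log2 fold changes of 2.73 (SE 1.39), 1.495 (SE 1.08) and 0.45 (SE 0.831), each with an edgeR FDR of at least 0.897.

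The liver, the main source of acute phase proteins and clade A serpins in the body, left little trace in the tumors. Its defining markers Ttr, Fgb and Tat had no read, and Alb did not exceed 0.238 CPM. The 8 hepatocyte markers summed to 0.260 to 6.50 CPM in E and to 0.255 to 12.8 CPM in NE, and the highest sum was mostly Cyp2e1, at 12.02 CPM in NE4. The 5 Serpina1 genes that encode alpha-1-antitrypsin paralogs and Serpina1f had 0 to 16 reads in a tumor, the highest being Serpina1d in E3.

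The intracellular inhibitors of clade B held the 3 members with the smallest p values, all in the chromosome 13 cluster. Serpinb6a, an inhibitor of cathepsin G, was at 37.6, 35.3, 38.1, 40.4 and 34.2 FPKM in E1 to E5 and at 41.8, 39.3, 38.9, 53.3 and 40.6 FPKM in NE1 to NE5. Of the E tumors only E4 reached into the NE range. The level was 37.1 ± 2.45 FPKM in E and 42.8 ± 5.99 FPKM in NE, a log2 fold change of -0.24 (SE 0.104, edgeR p 0.0432, FDR 0.897, exact permutation p 0.0317), and without NE4, its highest tumor, the value was -0.13 with an edgeR p of 0.0603. The edgeR p was also above 0.05 without E1, E2, E5, NE1 or NE5, at 0.0505 to 0.0947.

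Serpinb9b, a neighbor and relative of Serpinb9, was at 5.33, 3.79, 4.37, 7.72 and 3.21 FPKM in E1 to E5 and at 6.58, 5.15, 6.58, 8.60 and 7.88 FPKM in NE1 to NE5. E4 lay among the NE tumors, and the other E tumors lay near or under the lowest NE tumor. The log2 fold change was -0.54 (SE 0.237, edgeR p 0.0435, FDR 0.897, exact permutation p 0.0794), and it ran from -0.77 without E4 to -0.42 without E5. The edgeR p was 0.00315 without E4 and 0.0271 without NE2, and leaving out any other tumor put it at 0.0537 to 0.0972.

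Serpinb9g had the lowest log2 fold change of the family and few reads. It had 10, 17, 11, 15 and 9 reads in E1 to E5 and 11, 24, 52, 29 and 29 reads in NE1 to NE5, or 0.251 to 0.473 FPKM in E and 0.247 to 1.19 FPKM in NE. All 5 E tumors and NE1 were at or under 17 reads, and the other 4 NE tumors were above. The log2 fold change was -1.03 (SE 0.381, edgeR p 0.0215, FDR 0.897, exact permutation p 0.0635), and it ran from -1.24 without NE1 to -0.75 without NE3, with an edgeR p above 0.05 without NE3 (0.0673) or E1 (0.0507). Its reads are uncertain, since 54.8% of the stretches of 50 bases in its transcripts also occur in transcripts of other genes, most often Serpinb9h.

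Serpinb9, the inhibitor of granzyme B that shields cytotoxic cells and antigen-presenting cells from their own enzyme, was the fifth most abundant member. Its level was 28.1, 27.6, 24.4, 29.5 and 22.3 FPKM in E1 to E5 and 23.0, 30.03, 38.3, 29.9 and 25.8 FPKM in NE1 to NE5. The groups covered much the same range, with NE3 highest, and the log2 fold change was -0.19 (SE 0.133, 95% interval -0.45 to 0.07, edgeR p 0.185, FDR 0.897), with -0.26 (p 0.0464) without NE1 and -0.08 (p 0.493) without NE3. Serpinb6b was at 17.5, 18.5, 20.3, 23.5 and 15.3 FPKM in the E tumors and at 17.2, 20.8, 26.8, 22.6 and 21.3 FPKM in the NE tumors, with a log2 fold change of -0.22 (SE 0.140, edgeR p 0.139, FDR 0.897). That value ran from -0.31 without E4 (p 0.0497) to -0.14 without NE3 (p 0.326), and the edgeR p was 0.0416 without NE1.

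Granzyme B, the target of Serpinb9, its relatives and the cells that carry them were measured in the same tumors. Gzmb was at 68.6 ± 25.0 FPKM in E and 68.9 ± 16.6 FPKM in NE (log2 fold change -0.03, SE 0.253, edgeR FDR 0.990). Of 10 granzyme genes 9 were tested and none was called (median log2 fold change -0.10); Gzmm was lower in E at an unadjusted p of 0.0308 (log2 fold change -1.08, SE 0.431, edgeR FDR 0.897), at 0.420 ± 0.155 FPKM in E and 0.857 ± 0.477 FPKM in NE. Gzmg, Gzmd and Gzmf, the most abundant with means of 195, 186 and 129.6 FPKM, had log2 fold changes of -0.15, -0.06 and -0.11 (FDR 0.978 to 0.991). Granzyme RNA summed to 1634 CPM in NE1 and to 192 CPM in E5, with the other tumors between 329 and 1351 CPM. The 8 cytotoxic lymphocyte markers summed to 180.1 to 395 CPM in E and to 239 to 334 CPM in NE, with a median log2 fold change of 0.02 and none at an unadjusted p of at most 0.05; Gzma and Gzmb stand in both lists. Serpinb9 and their score had r of 0.68 (permutation p 0.0315, adjusted 0.0756) and rho of 0.67 (adjusted 0.0943), and r of 0.68 without E4 and NE1, which did not pass the adjustment over the 12 relations.

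Serpinb1a inhibits neutrophil elastase, proteinase 3 and cathepsin G. It was at 7.49, 8.36, 4.23, 6.16 and 6.87 FPKM in E1 to E5 and at 1.41, 6.41, 8.22, 13.9 and 6.37 FPKM in NE1 to NE5, with NE4 10.6-fold above NE1 in CPM. The log2 fold change was -0.19 (SE 0.458, edgeR FDR 0.958), 0.23 without NE4 and -0.44 without NE1. With the neutrophil score, which was highest in E5 at 5.12, r was 0.41 (permutation p 0.186, adjusted 0.279; rho 0.59, adjusted 0.163) and 0.79 without E5 and NE1; without E5 alone r was 0.90 with an adjusted p of 0.00810.

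Of the proteases that Serpinb1a and Serpinb6a inhibit, cathepsin G was measured in both groups while Elane and Prtn3 were scarce, and the most abundant genes of their list are known as mast cell products. Elane, the elastase gene, had at most 4 reads and Prtn3 at most 13 reads in a tumor, and Ctsg was at 5.61 ± 3.85 FPKM in E and 5.38 ± 1.89 FPKM in NE (log2 fold change 0.03, SE 0.450, edgeR FDR 0.995). Mcpt4, Cma1 and Tpsb2, which stand in the mast cell list too, were the most abundant of the 8 listed proteases with means of 37.4, 31.0 and 20.5 FPKM, and their log2 fold changes were 0.43, 0.36 and 0.48 with SE of 0.551, 0.523 and 0.536. The 6 tested proteases had a median log2 fold change of 0.41 and the 6 mast cell markers 0.40; none of them had an unadjusted p of at most 0.05, the smallest p of the proteases being that of Tpsab1 (0.0836). The neutrophil markers S100a8, S100a9 and Clec4d were higher in E at an unadjusted edgeR p of 0.0407 to 0.0453, with the highest CPM of all 3 in E5 (FDR 0.897 each). Over all genes tested, 2.57% were higher in E at a p of at most 0.05. The 7 tested genes of the neutrophil list had a median log2 fold change of 0.93.

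In the chromosome 1 cluster, Serpinb2, or PAI-2, known from activated macrophages, was at 2.19, 0.890, 0.805, 1.63 and 4.33 FPKM in E1 to E5 and at 1.11, 1.80, 1.95, 1.87 and 3.82 FPKM in NE1 to NE5. E5 and NE5 were the highest tumors, and the log2 fold change was -0.15 (SE 0.480, edgeR FDR 0.971), -0.65 without E5 and 0.18 without NE5. With the macrophage score, r was 0.63 (permutation p 0.0485, adjusted 0.0970) and rho 0.85 (adjusted 0.0148), and r was 0.54 without E5 and NE1. The macrophage gene Cd14 was at 33.2 ± 15.6 FPKM in E and 18.6 ± 2.43 FPKM in NE (log2 fold change 0.80, SE 0.255, edgeR p 0.00979, FDR 0.897), and none of the other 7 macrophage markers had an unadjusted p of at most 0.05. The median over the 8 was 0.16.

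Serpinb8, which can inhibit furin, was at 2.43 to 4.59 FPKM (log2 fold change 0.02, SE 0.171), and Serpinb7 ran from 0.322 FPKM in E1 to 1.64 FPKM in E3 (log2 fold change -0.23, SE 0.448), with edgeR FDR of 0.993 and 0.947. Serpinb1b, the last tested member of the chromosome 13 cluster, was at 0.202 to 0.812 FPKM with a log2 fold change of -0.12 (SE 0.405, FDR 0.973).

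The cysteine cathepsins, targets of Serpina3g and of several clade B inhibitors, were abundant, with Ctss, Ctsb and Ctsz at means of 496, 337 and 245 FPKM. All 10 were tested and none was called. All had log2 fold changes above 0, with a median of 0.15, while 54% of all genes tested had a value below 0. Ctsk was at 85.4 ± 50.1 FPKM in E and 41.3 ± 15.4 FPKM in NE (log2 fold change 1.03, SE 0.413, edgeR p 0.0312, FDR 0.897) and was the cathepsin at an unadjusted p of at most 0.05. Of the 13 kallikrein-type and membrane serine proteases 6 were tested with a median log2 fold change of -0.02, and Htra3 was higher in E at an unadjusted p of 0.0299 (log2 fold change 0.33, SE 0.132, FDR 0.897). Htra1, the most abundant with a mean of 110.2 FPKM, had a log2 fold change of -0.05 (FDR 0.944). Between Serpina3g and the interferon-stimulated genes r was -0.10 (permutation p 0.762, adjusted 0.831), rho was -0.27 (adjusted 0.599), and r was 0.19 without E4 and NE4. The 8 genes of that list had log2 fold changes above 0 with a median of 0.31, and none had an unadjusted p of at most 0.05.

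**Figure D4:**
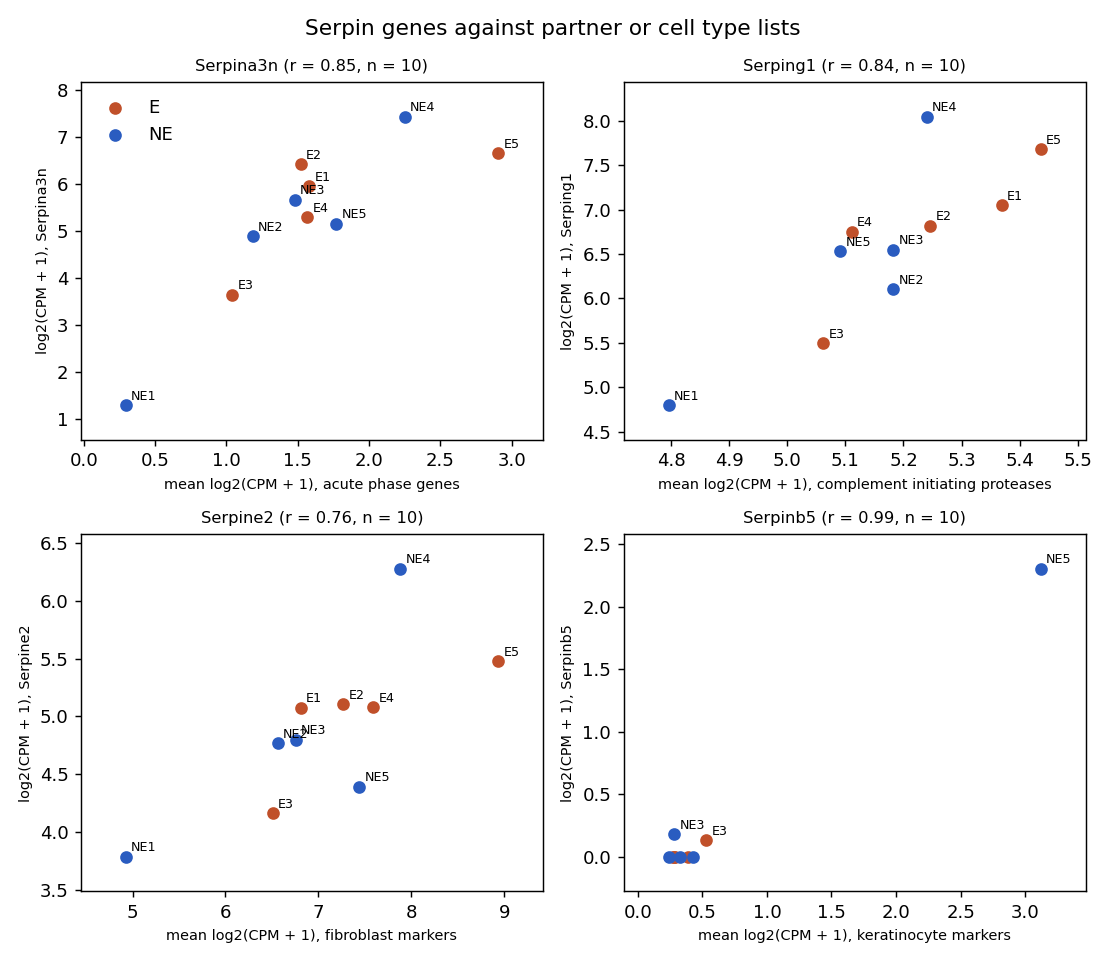
Log2(CPM + 1) of a serpin gene against the mean log2(CPM + 1) of its partner or cell type list in 10 tumors, E in orange-red and NE in blue, for 4 of the 12 relations. Serpina3n with the acute phase genes (r = 0.85) and Serping1 with the complement initiating proteases (r = 0.84) passed the adjusted p of 0.05, Serpine2 with the fibroblast markers (r = 0.76) did not, and in the Serpinb5 panel the value of 0.99 rests on NE5 alone. The complement list also holds C1qa, C1qb and C1qc, which do not encode proteases.

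Of the 12 relations, the 2 of Serpina3n and Serping1 passed an adjusted p of 0.05, and 4 passed by Spearman's rho. NE1 stood at the low end of both, and without NE1 and NE4 together none of the 12 passed. Over those 8 tumors r was 0.82 for Serping1 with the complement list (adjusted p 0.115) and 0.70 for Serpina3n with the acute phase genes (adjusted p 0.184).

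The 41 members that were not tested had few reads or none, with 1 tumor apart. Of these, 10 had no read in any tumor and 31 had at least 1, and their highest mean was 0.252 FPKM. Together they had 383 reads in NE5 against 27 to 112 reads in each other tumor, and 24 of the 31 were detected in NE5 against 10 to 16 elsewhere. NE5 had the most CPM of 13 of the 31, and NE3 of 6.

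Members known from skin and other squamous epithelium were among those that NE5 carried. Serpinb5, or maspin, an epithelial serpin first described as a tumor suppressor of the breast, had 83 reads in NE5, 3 in NE3, 2 in E3 and none in the other 7 tumors, or 1.41 FPKM against at most 0.0480 FPKM. Serpinb3b, a squamous cell carcinoma antigen relative, had 26 reads in NE5 and none elsewhere. Other members of their chromosome 1 cluster did not share this. Serpinb12 had 13 reads in NE5, 18.6% of its reads, Serpinb13 had no read in any tumor, and Serpinb7 was highest in E3. Serpina3j, Serpina3b, Serpinb6d and Serpinb6c had 90, 60, 27 and 18 reads in NE5, which were 90.9%, 96.8%, 93.1% and 72% of their reads over all tumors; these 4, with Serpinb3b and Serpina3m, were named after their values were seen. For a gene with no read, 3 reads allow up to 0.195 CPM in the tumor of lowest depth.

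Keratinocyte genes were present in the same tumor. Krt14, Krt5 and Krt1 reached 54.2, 28.9 and 26.4 CPM in NE5, and the keratinocyte score was 3.12 there against 0.238 to 0.530 in the other tumors. Of the 9 markers 2 were tested, Krt10 and Trp63, with a median log2 fold change of -0.92, and neither had an unadjusted p of at most 0.05. Serpinb5 and the score had r of 0.99 over the 10 tumors (permutation p 0.0204, adjusted 0.0612; rho 0.50, adjusted 0.267) and r of -0.19 without NE5 and E3, so that the relation rests on NE5. Klk7 and Klk6, kallikreins of the skin, had 137 and 66 reads in NE5, and their highest CPM was in this tumor as well. They were named with their values known. Of the other Klk genes of the list, Klk10 and Klk13 were also highest in NE5, with 10 and 4 reads. Klk1 and Klk8 were highest in NE3. The part of skin in these serpin reads was not tested.

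**Figure D5:**
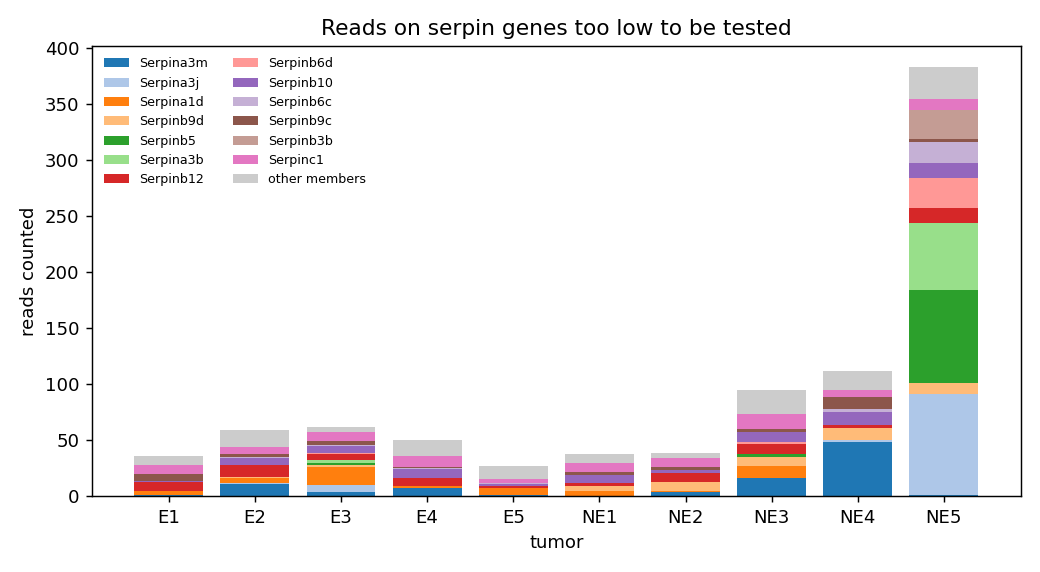
Reads counted in each tumor on the serpin genes with too few reads to be tested, stacked by gene; genes with at least 10 reads in some tumor are named and the rest are in grey. NE5 carried 383 such reads, led by Serpina3j, Serpinb5 and Serpina3b, and the other tumors carried 27 to 112; NE4 was led by Serpina3m with 48 reads.

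Serpina3m differed from its relatives in the low range. It had 48 reads in NE4, 16 in NE3, 11 in E2 and 0 to 7 in the other tumors, so that NE4 led as for Serpina3n, while Serpina3j and Serpina3b were led by NE5. Endothelial and platelet markers were measured beside the family. The 7 endothelial markers had a median log2 fold change of 0.04 with none at an unadjusted p of at most 0.05. Of the 5 platelet markers 3 were tested, with a median of 0.52. Among them 2, Itga2b and Pf4, were higher in E at an unadjusted edgeR p of 0.0203 and 0.0333 (FDR 0.897 each). Over all genes tested, 2.57% were higher in E at a p of at most 0.05. Of the skeletal muscle markers 11 of 12 were tested, all with log2 fold changes below 0 (median -2.41) and none at an unadjusted p of at most 0.05. NE4 had 28974.5 CPM of these markers, against 3954 CPM in the highest E tumor. By the mean log2(CPM + 1) the muscle list was not lower in E, with a mean score of 5.23 in E and 4.97 in NE. The 7 fibroblast markers all had log2 fold changes above 0 (median 0.68), again with none at that p.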

How the data were processed

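RNA of 10 subcutaneous 4T1 tumors, 5 from exercising and 5 from sedentary mice, was sequenced with 1 library per mouse. The authors aligned the reads and assembled transcripts with Hisat2 and Stringtie and deposited a read count and an FPKM value per gene. Their methods name a rat assembly, whereas the deposited gene identifiers are mouse Ensembl identifiers; the build of the positions is not given in the sources used here, nor whether counting used strand, so that reads of a gene and an antisense partner cannot be told apart. The deposited FPKM equalled count over length and library total to a relative deviation of 3.77e-14. The E libraries held 15045613 to 20646763 counts and the NE libraries 18706032 to 23092251 counts; 3 counts, the floor for a gene with no read, were 0.195 CPM with the TMM factor at the lowest depth; floors cover counting error only.

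Counts were compared with edgeR 4.0.16 in R 4.3.3 (TMM, filterByExpr, glmQLFit and glmQLFTest, Benjamini-Hochberg adjustment over 13517 genes), with a call at an FDR no higher than 0.05 and a change of 2-fold or more. Levels were taken from FPKM, and CPM include the TMM factor. The 95% intervals are normal intervals from the standard error. Exact permutation tests were two-sided over the 252 assignments of tumors (smallest possible p 0.00794). For relations, Pearson's r and Spearman's rho between log2(CPM + 1) of a serpin and the mean log2(CPM + 1) of a list were tested with 100000 permutations and adjusted over 12 relations. DESeq2 1.42.0, limma 3.58.1, other filters, scalings and pseudocounts, a replicate block and leaving out tumors were tried as alternatives. The edgeR script was tested on simulated data. Shared stretches of 50 bases came from GENCODE M21 transcripts and promoters from RefSeq, read with Python 3.11.15 and scipy 1.17.1.

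The members and lists were chosen with earlier results of these data known, and the tissue markers after their values were seen. Named members were the 12 of highest mean FPKM, the 6 of smallest p, the 3 of largest ratio between tumors and those of the 12 relations; of each partner list the 3 genes of highest FPKM and the gene of smallest p could be named. Other members were named with their counts. Further list genes were named outside the rule for lists and with their values known. Among them were Elane, Prtn3, Ctsg, F2, Plg, Thbs1, C1s1, Klk6, Klk7 and Krt1. The values of 1 tested member, and its relation, are not reported here, though it stays in the counts over the family.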

Additional observations from a re-analysis of the deposited data

Results flagged for a closer look

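Of 78 groups of 5 tumors examined, 12 held a tumor far from the other 4. About 3.9 would by chance if the groups had been chosen without regard to their values. Members and lists were chosen partly on their values, and some genes had almost no reads. The number found can therefore not be set against that rate. Among the E tumors, E5 stood apart in Serpinf1 at 214 CPM (nearest tumor 125 CPM), in the neutrophil score at 5.12 (nearest 2.81) and in the acute phase score at 2.90 (nearest 1.58), and E3 in Serpinb5 at 0.0984 CPM, which is 2 reads, with none in the other E tumors.

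Among the NE tumors, NE4 stood above the others in Serping1 at 263 CPM (nearest 92.7 CPM), in Serpinb6a at 303 CPM (nearest 223 CPM), in Serpina3n at 170 CPM (nearest 49.4 CPM) and in Serpine2 at 76.6 CPM (nearest 26.8 CPM). NE3 stood above the others in Serpind1 at 1.54 CPM (nearest 0.593 CPM). NE5 stood above the others in Serpinb5 at 3.94 CPM (nearest 0.132 CPM) and in the keratinocyte score at 3.12 (nearest 0.431). NE1 stood below the others in the macrophage score at 6.06 (nearest 7.29).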

How the results depend on the processing

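No serpin gene was called under any alternative run, and 15 members had a mean of at least 1 FPKM with each tumor left out, 22 a mean of at least 1 TPM and 13 at least 1 FPKM in every tumor. The count of members at an unadjusted p of at most 0.05 was 3 and became 7 (Serpina3b, Serpinb5, Serpinb6d and Serpinb9d added, all lower in E; 53 members tested, 13.2% against 4.36% of all genes, median log2 fold change -0.23) with no filter beyond 1 read, and 1 (4.55% against 8.5% of all genes) without NE tumors 1 and 4, a setting chosen after seeing the data. Of the members added with no filter, Serpina3b, Serpinb5 and Serpinb6d had 96.8%, 94.3% and 93.1% of their reads in NE5, so that their values rest on that tumor. Serpinb9d had 25% of its reads in NE4, its highest tumor. Leaving out single tumors gave 0 (without E1, 5.71% of all genes) to 5 members (without E4, 22.7% against 4.04% of all genes). The count was 1, or 4.55%, without E2, E5, NE4 or NE5, where all genes had 3.58%, 2.73%, 4.7% and 4.25%. It was 3, or 13.6%, against 9.9% of all genes without NE1. Medians ran from -0.25 (without NE1) to 0.0633 (without NE4). Library size without TMM gave log2 fold changes of 0.0092 for Serpina3c and 0.0269 for Serpine2. limma-voom with sample weights gave 0.0172 for Serpinb1a, -0.0798 for Serpina3g, 0.88 for Serpina3c and 0.34 for Serpine2. Without NE tumors 1 and 4 the values were -0.0599 for Serpina3g, 0.70 for Serpina3c and 0.41 for Serpine2, r of Serping1 with the interferon-stimulated genes was 0.035, and 0 of the 12 relations passed, with r of 0.821 for Serping1 with the complement list and 0.703 for Serpina3n with the acute phase genes over 8 tumors. With log2(CPM + 0.1) 4 relations passed, as with Spearman's rho, against 2. The cause of these changes was not tested.

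With single tumors left out, log2 fold changes ran from -0.41 to 1.12 for Serpina3c, -0.26 to 1.06 for Serpina3n, -0.23 to 0.23 for Serpina3g, -0.0351 to 0.56 for Serpina3i, -0.44 to 0.23 for Serpinb1a, -0.65 to 0.18 for Serpinb2, -0.22 to 0.58 for Serpine2, -0.52 to -0.0697 for Serpina3f, -0.31 to -0.14 for Serpinb6b, -0.26 to -0.0814 for Serpinb9, 0.0566 to 0.18 for Serpinh1 and -0.14 to 0.79 for Serping1. Relations that passed numbered 0 to 3, and r ran from -0.394 to 0.214 for Serpina3g and from -0.413 to 0.231 for Serping1 with the interferon-stimulated genes, from -0.00418 to 0.682 for Serpinf1 and from -0.121 to 0.282 for Serpinh1. Few reads limit Serpina3c, Serpina3i, Serpinb9g and Serpind1.

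The groups share replicate numbers. The study speaks of matched pairs without saying which tumors match, and the labels give no pairing, so that no pairs were used in the test reported. Correlations of same-numbered deviations were 0.0355, -0.156, -0.0949, -0.325 and 0.316, and 1 of 5 E tumors correlated best with its own number. With a replicate block the log2 fold change was 0.0534 for Serpinb1a, 0.52 for Serpina3c and 0.19 for Serpine2, and 0 members were called. In that fit 3 members (13.6%, against 5.28% of all genes) had an unadjusted p of at most 0.05. The median was 0.03, against -0.0039 over all genes.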
